A study of Mus musculus with 14 samples.

Results

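The 38 genes described here encode the machinery of mitosis: the cyclins and kinases that start it, the checkpoint and ubiquitination proteins that time it, and the kinetochore, spindle and cytokinesis proteins that carry it out. They were taken by name from the gene names of the arrays, with older names such as Cdc2a for Cdk1, and 1 probe stood for each gene, the one with the highest mean signal. All 38 were among the 17032 genes that passed a filter on dim probes. RNA came from tumours of B16F10, a melanoma cell line of C57BL/6 mice, which had been injected 9 days before day 0 of the experiment. The arms were sampled on single days and hybridised to 14 Agilent one-colour arrays.

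Untreated C57BL/6 mice carried the tumour and received no T cells. Their tumours were taken on days 1, 3, 5 and 7, and each of these 4 arrays held pooled RNA of 4 tumours. In the CTL arm, mice received on day 0 CD90.1+ cytotoxic T lymphocytes (CTLs) that recognise gp100, a melanocyte protein, and that had been activated in culture. Its 4 arrays came from the same 4 days and also held 4 tumours each. In the other two arms the same CTLs were combined with intraperitoneal anti-IFNg, which neutralises interferon gamma, or with control Rat IgG, given on days 0 and 2. Either antibody arm had 3 arrays, taken on days 3, 5 and 7, and each array held 3 tumours. Every mouse carried the same B16F10 line, and the recipients' own lymphocytes are not described in the labels. Each array was 1 pool, so the spread between single mice was not measured. The p-values measure how far differences between arms varied from day to day. For each gene that spread was pooled over all arms in the fit, also those not compared.

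Cyclin-dependent kinase 1 with B-type cyclins drives a cell into mitosis, and the anaphase-promoting complex with its activator Cdc20 ends it by marking cyclin and securin for destruction. The genes of this programme are switched on together late in the cell cycle, so their RNA is widely read as a measure of how many cells of a tissue are dividing. Whole tumours were measured, so fewer dividing cells and less of these RNAs per cell cannot be told apart.

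The promoters of genes of late cell cycle are known for CCAAT boxes, bound by NF-Y, and for the cell cycle genes homology region, an element of the form TTTGAA or TTCGAA bound by the DREAM and MuvB complexes. RefSeq promoters (GRCm38.p6, 250 bases before to 50 after each gene's start) were found for 33 of the 38 genes and were searched on both strands. Ccna2, Cdc25c, Aurkb, Tpx2 and Kif20a were not matched. CCAAT occurred in 26 of the 33 promoters (78.8%) and in 37.9% of all 27025 promoters of that length. TTTGAA occurred in 24 (72.7%) against 18.1%, and TTCGAA in 3 (9.09%) against 1.57%. CCAAT together with either of the other motifs was found in 22 of the 33 (66.7%) and in 7.70% of all promoters, and over the 10591 matched genes tested the share was 6.07%. Birc5, Mad2l1, Nuf2 and Nusap1 held none of the 3 motifs in this window. A match is a description of the letters and shows no binding, and an absent match shows only that these letters are not in the window. Of 49 promoters of other mitosis genes, 69.4% held CCAAT and 57.1% TTTGAA, and of 35 promoters of DNA replication genes, 54.3% and 17.1%.

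Promoters are printed below for Mki67 and Hmmr, which had the smallest p-values in the main comparisons, for the kinases Cdk1 and Plk1, and for Nuf2, which has none of the motifs. Capitals mark CCAAT, which reads ATTGG when it lies on the opposite strand, and TTTGAA. Mki67 lies at chr7:135716330-135716629, Hmmr at chr11:40733388-40733687, Cdk1 at chr10:69352863-69353162 and Nuf2 at chr1:169531415-169531714, all on the minus strand. Plk1 lies at chr7:122159185-122159484 on the plus strand. In Cdk1 the TTTGAA elements begin at -71 and -15 from the start and in Mki67 at -116 and -98, while in Plk1 and Hmmr the element begins after the start, at 31 and 9.
Mki67: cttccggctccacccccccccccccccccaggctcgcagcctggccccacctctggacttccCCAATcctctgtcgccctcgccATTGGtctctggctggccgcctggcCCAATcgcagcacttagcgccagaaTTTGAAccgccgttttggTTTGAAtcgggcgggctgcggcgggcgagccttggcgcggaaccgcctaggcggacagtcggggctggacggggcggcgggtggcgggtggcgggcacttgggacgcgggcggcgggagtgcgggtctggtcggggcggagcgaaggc
Hmmr: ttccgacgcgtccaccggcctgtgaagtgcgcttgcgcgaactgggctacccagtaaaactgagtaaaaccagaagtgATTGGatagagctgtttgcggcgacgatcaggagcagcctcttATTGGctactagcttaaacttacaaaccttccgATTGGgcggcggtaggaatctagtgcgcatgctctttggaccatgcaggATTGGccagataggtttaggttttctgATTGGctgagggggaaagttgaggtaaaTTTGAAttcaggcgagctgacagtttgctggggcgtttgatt
Cdk1: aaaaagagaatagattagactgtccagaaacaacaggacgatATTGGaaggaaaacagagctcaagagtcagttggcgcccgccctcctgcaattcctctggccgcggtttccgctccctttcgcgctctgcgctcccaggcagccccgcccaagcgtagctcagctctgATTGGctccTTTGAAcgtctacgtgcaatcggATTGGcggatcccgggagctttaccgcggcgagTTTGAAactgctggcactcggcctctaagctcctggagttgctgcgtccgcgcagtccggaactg
Plk1: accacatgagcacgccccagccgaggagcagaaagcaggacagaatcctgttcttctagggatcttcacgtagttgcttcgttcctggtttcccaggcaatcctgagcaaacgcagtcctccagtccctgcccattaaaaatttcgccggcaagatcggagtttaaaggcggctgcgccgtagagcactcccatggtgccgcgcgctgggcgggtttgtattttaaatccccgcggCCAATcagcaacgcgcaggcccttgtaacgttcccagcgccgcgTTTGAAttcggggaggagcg
Nuf2: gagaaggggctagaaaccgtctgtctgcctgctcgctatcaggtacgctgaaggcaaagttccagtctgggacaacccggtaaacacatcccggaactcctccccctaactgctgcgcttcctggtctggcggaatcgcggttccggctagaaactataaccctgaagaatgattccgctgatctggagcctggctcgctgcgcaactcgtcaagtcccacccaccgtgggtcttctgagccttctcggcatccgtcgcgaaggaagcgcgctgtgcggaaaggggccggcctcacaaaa

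On the arrays 48.9% to 59.7% of spots were well above background, and the lowest share was that of CTL day 5. The 75th percentile of the signal, by which levels are scaled, was 536, 358, 312 and 301 in CTL tumours on days 1, 3, 5 and 7. In untreated tumours it was 485, 470, 495 and 303. On days 3, 5 and 7 it was 415, 407 and 365 with IgG and 397, 454 and 486 with anti-IFNg. Its part in the differences between arms was not tested. The day of sampling equalled the slide. An arm kept the same position on every slide that held it, and the slide of day 1 held only CTL and untreated arrays. Arm therefore cannot be told apart from position. The melanocyte genes by which a B16F10 tumour is known were present in every arm: the summed level of 12 melanocyte markers was 1439 to 2003 in untreated tumours of days 3, 5 and 7 (in units of the array's 75th percentile), 1621 to 1949 in CTL tumours, 1673 to 1747 with IgG and 1614 to 1856 with anti-IFNg, and none of the 12 passed the test in either main comparison.

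Levels are given as log2 of the processed signal relative to the 75th percentile of the same array, and a level is compared only with levels of the same gene. Of the 38 genes, 37 were well above background on all 14 arrays. Ttk, a checkpoint kinase, was well above background on 12 arrays, and no probe was saturated. The 38 genes went up and down together over the arrays: the correlation of a gene with the median of the other 37 had a median of 0.954 over 14 arrays, and was over 0.9 for 34 genes. All these arrays share the arm and day structure, so the coefficient describes the set and is not tested. Ttk stood apart with 0.00719, and the next lowest value was 0.870.

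**Figure D1:**
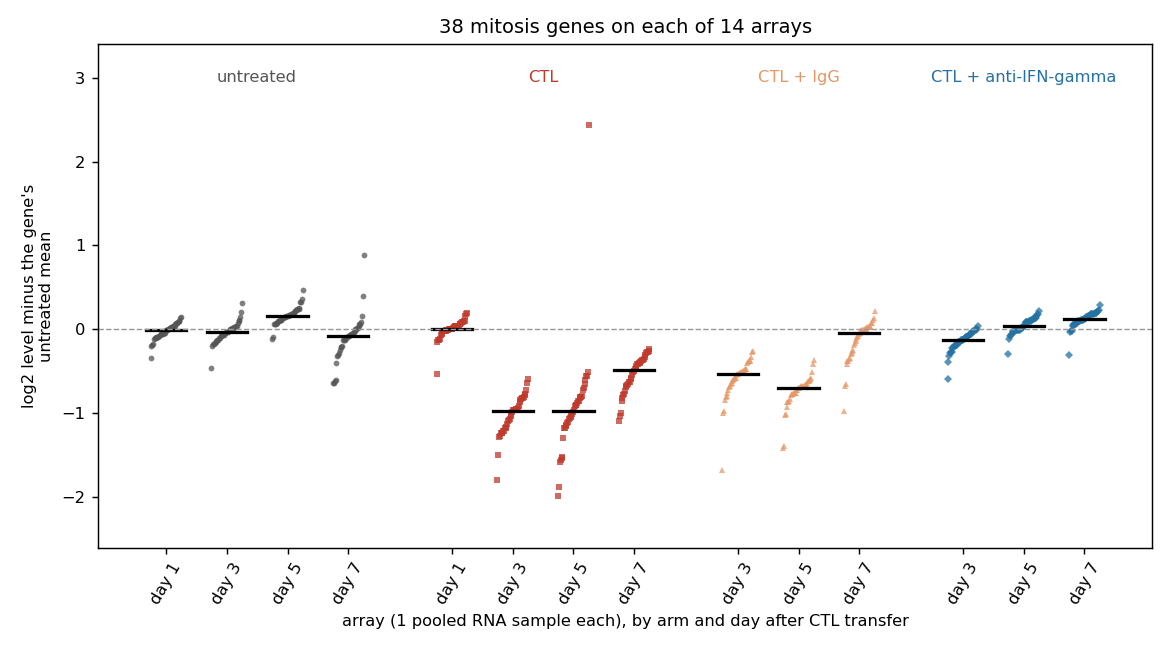
Level of each of the 38 mitosis genes on each of the 14 arrays, as log2 difference from that gene's mean over the 4 untreated arrays; 1 point is 1 gene, and the black bar is the median of the 38. The medians of the CTL arrays are 0.01 on day 1, -0.97 on day 3, -0.97 on day 5 and -0.48 on day 7, those with anti-IFNg are between -0.12 and 0.12, and the single high point of CTL day 5 is Ttk at 2.43.

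CTL-treated and untreated tumours of the same day were compared first. On day 1 the CTL and untreated arrays were alike: the median of the 38 same-day differences was 0.04 on the log2 scale, with a range from -0.19 to 0.17. On day 3 all 38 genes were lower in the CTL tumours, by a median of 0.98 (difference -0.98, from -1.53 to -0.56). On day 5 the median was -1.15 and 37 genes were lower, Ttk being the exception. On day 7 the median was -0.40 and 36 genes were lower, with Cdk1 and Mad2l1 at 0.01 and 0.22. The median over all genes tested was 0.00, -0.14, -0.03 and -0.14 on these days. The most negative difference was that of day 5 for 28 genes, of day 3 for 8 and of day 7 for Hmmr and Ttk.

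In limma's test over all 4 days, 6 of the 38 genes fell and none rose at an adjusted p under 0.05 (Hmmr, Mki67, Ndc80, Cenpa, Cenpe and Cdca3), where 5.93% of all genes tested fell and 4.86% rose. At an unadjusted p under 0.05, 34 of the 38 were lower, and so were 4210 of all 17032 genes tested. All 38 fitted differences were below 0, with a median of -0.61 against -0.08 over all genes, and a range from -1.06 for Cdc25c to -0.19 for Ttk. The count depends on the days: without day 1, 36 of the 38 fell and none rose, where 21.4% of all genes fell and 10.1% rose, and the median was -0.83, whereas without day 3, 5 or 7 none of the 38 and no other gene tested passed. It also changed with the filter on dim probes. The count was 21 of 37 where only genes well above background on every array were kept, with 13.8% of all genes lower in that fit. It was 0 with no filter, where no gene at all was called lower. On days 3, 5 and 7 the 3 CTL arrays lay below the 3 untreated arrays with no overlap for 35 genes, all but Cdk1, Mad2l1 and Ttk, and this held for 28.5% of all genes.

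Mki67 encodes Ki-67, the coat protein of mitotic chromosomes that pathologists stain to count dividing cells. Its level in untreated tumours was 4.64, 4.78, 4.90 and 4.98 on days 1, 3, 5 and 7, and in CTL tumours 4.67, 3.56, 3.30 and 3.83. With IgG it was 3.85, 3.43 and 4.15 on days 3, 5 and 7, and with anti-IFNg 4.67, 4.80 and 4.93. The CTL arrays of days 3 to 7 and all IgG arrays lay below every untreated array, and the anti-IFNg arrays differed from the untreated array of the same day by -0.11, -0.10 and -0.05. CTL tumours were lower by a log2 difference of -0.98 ± 0.23 (SE, n = 4 days; limma's adjusted p = 0.0422). Without day 1 the difference was -1.32 ± 0.14 (n = 3 days; limma's adjusted p = 0.000662), a level 2.50-fold lower, and without day 3, 5 or 7 the adjusted p was between 0.175 and 0.358. A second Mki67 probe gave -1.0. The probe used lies at chr7:135528251-135528310 (mm8, minus strand).

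Top2a, the topoisomerase that untangles sister DNA, read 1.76, 1.71, 1.98 and 1.90 in untreated tumours on the 4 days and 1.87, 1.06, 1.02 and 1.29 in CTL tumours. Its difference of -0.53 ± 0.16 did not pass (limma's adjusted p = 0.0570). A second Top2a probe gave -0.10.

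**Figure D2:**
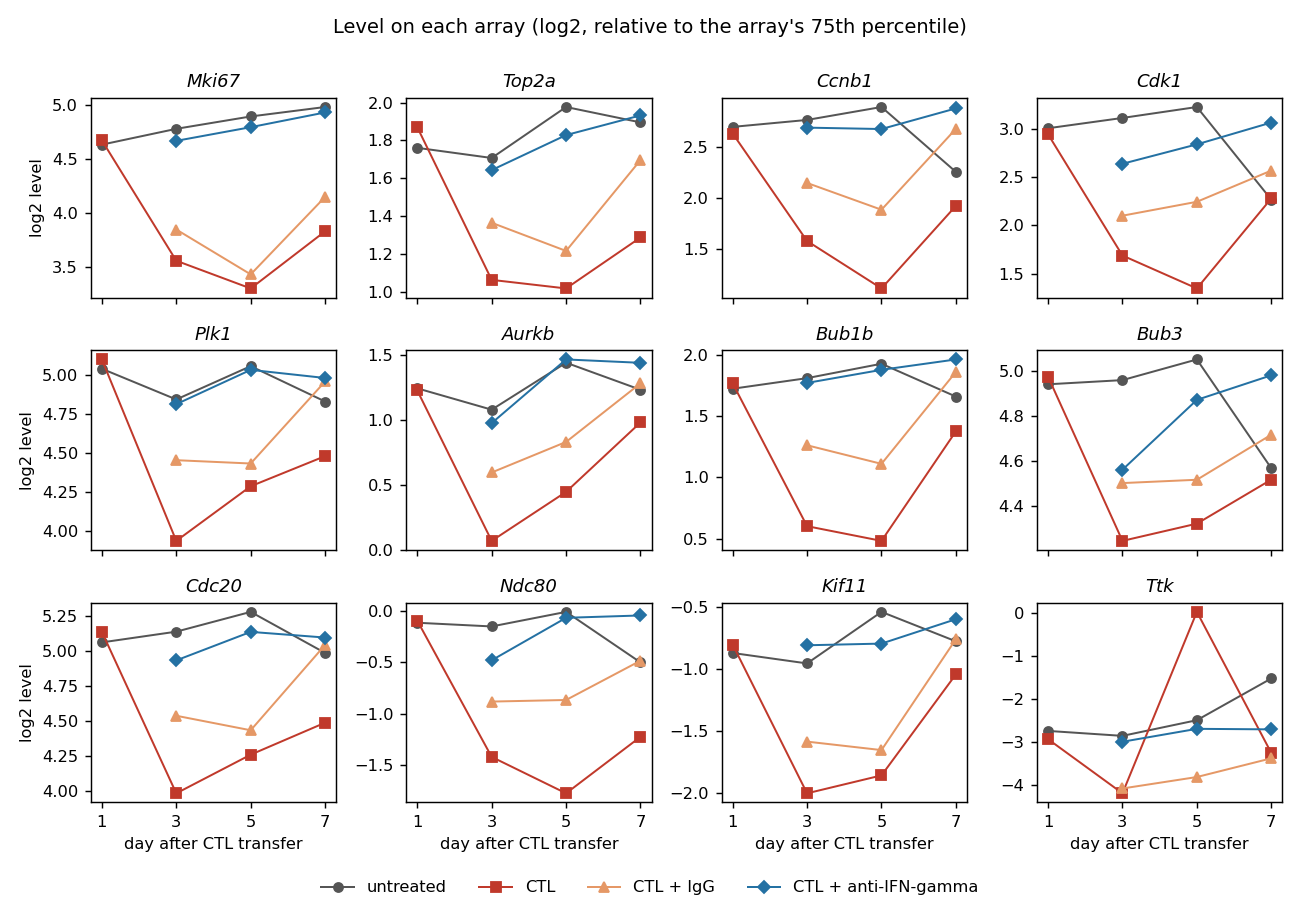
Log2 level of 12 mitosis genes by day after CTL transfer, 1 point per array; lines join arrays of one arm, which come from different mice on each day, and each panel has its own scale. For Mki67 the CTL arrays go from 4.67 on day 1 to 3.30 on day 5 and 3.83 on day 7 while the untreated arrays stay between 4.64 and 4.98, and for Ttk the CTL array of day 5 stands at 0.04, above all others.

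The 7 genes of mitotic entry had a median difference of -0.70, and Cdca3 fell while the other 6 did not pass with all days. Ccnb1, the cyclin that activates Cdk1, read 2.70, 2.76, 2.89 and 2.26 in untreated tumours and 2.63, 1.58, 1.12 and 1.92 in CTL tumours on days 1, 3, 5 and 7. Its difference was -0.84 ± 0.26 (limma's adjusted p = 0.0608), and 2 further probes gave -0.62 and -0.73. Cdk1 itself read 3.01, 3.11, 3.22 and 2.27 in untreated tumours and 2.94, 1.69, 1.35 and 2.28 in CTL tumours, so that both arms met on day 7. Its difference was -0.84 ± 0.30 (limma's adjusted p = 0.0822). The untreated array of day 7 was the lowest of the 4 untreated arrays for 21 of the 38 genes, and that of day 5 was the highest for 32. Cdc25c, the phosphatase that removes the inhibitory phosphates of Cdk1, had the largest fitted difference, -1.06 ± 0.31 (limma's adjusted p = 0.0547). Ccna2 and Ccnb2, A- and B-type cyclins, had -0.57 and -0.64, Cks2, a small Cdk-binding protein, -0.47, and Cdca3, which takes part in the destruction of Wee1, -0.70 ± 0.19 (limma's adjusted p = 0.0498). Without day 1 all 7 fell, by log2 differences between -1.38 and -0.62.

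The mitotic kinases, and the chromosomal passenger complex, which corrects faulty attachments of chromosomes to the spindle, had median differences of -0.47 and -0.48, and none of their 6 genes passed with all days. Plk1, which acts on centrosomes, kinetochores and cytokinesis, read 5.04, 4.84, 5.05 and 4.83 in untreated and 5.10, 3.94, 4.29 and 4.48 in CTL tumours, a difference of -0.49 ± 0.16 (limma's adjusted p = 0.0706). Aurka, the kinase of spindle poles, had -0.39 and Nek2, the kinase that frees the centrosomes from each other, -0.47. Aurkb, the kinase of the passenger complex, read 1.24, 1.08, 1.44 and 1.23 in untreated and 1.22, 0.07, 0.44 and 0.98 in CTL tumours, a difference of -0.57 ± 0.17 (limma's adjusted p = 0.0575). Birc5, or survivin, which docks the complex on chromatin, read 6.00, 5.83, 6.02 and 5.98 against 6.03, 5.00, 5.45 and 5.69, a difference of -0.42 ± 0.16 (limma's adjusted p = 0.0972). Cdca8, or borealin, had -0.48. On day 3, where every passenger gene was lower by 0.83 or more, the order of arrays was the same for all: CTL lowest, IgG above it and anti-IFNg above both.

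The spindle checkpoint holds a cell in mitosis until every chromosome is attached, and its 5 genes had differences from -0.72 to -0.19. Bub1b read 1.72, 1.81, 1.93 and 1.66 in untreated and 1.77, 0.60, 0.48 and 1.38 in CTL tumours, a difference of -0.72 ± 0.23 (limma's adjusted p = 0.0648). Bub3, its partner, read 4.94, 4.96, 5.05 and 4.57 against 4.97, 4.25, 4.32 and 4.52, which gave the smallest difference after Ttk, -0.36 ± 0.15 (limma's adjusted p = 0.123). The kinase Bub1 had -0.67. Mad2l1, which inhibits Cdc20, read 1.48, 1.49, 1.66 and 0.73 in untreated and 1.54, 0.40, 0.17 and 0.95 in CTL tumours. Its difference of -0.58 ± 0.27 had the largest adjusted p but one (limma's adjusted p = 0.156), and on day 7 the CTL array was above the untreated one.

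Ttk, or Mps1, read -2.74, -2.85, -2.49 and -1.51 in untreated tumours and -2.93, -4.19, 0.04 and -3.25 in CTL tumours. The CTL array of day 5 was thus the highest of all 14 for this gene, and it was well above background on 3 of 4 CTL arrays, 2 of 3 IgG arrays and all others. Its difference of -0.19 ± 0.65 (limma's adjusted p = 0.850) has no settled sign: it was 0.51 where normexp-corrected mean signals replaced the processed signals. Only 1 probe measured Ttk, and whether that value is of the tissue or of the spot was not tested. Leaving Ttk out changed the median of the set to -0.62.

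Both genes of anaphase ubiquitination were lower on days 3, 5 and 7 and did not pass with all days. Cdc20, the activator of the anaphase-promoting complex, read 5.06, 5.14, 5.28 and 4.98 in untreated and 5.13, 3.98, 4.26 and 4.49 in CTL tumours, a difference of -0.65 ± 0.20 (limma's adjusted p = 0.0590). Ube2c, the ubiquitin-conjugating enzyme of that complex, read 3.89, 3.91, 4.02 and 3.88 against 3.89, 3.15, 3.21 and 3.58, a difference of -0.47 ± 0.16 (limma's adjusted p = 0.0750).

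The centromere and kinetochore group held 3 of the 6 genes that fell with all days. Ndc80, the microtubule-binding subunit of the kinetochore, read -0.11, -0.15, -0.01 and -0.50 in untreated and -0.09, -1.42, -1.78 and -1.22 in CTL tumours. Its CTL arrays of days 3 to 7 lay below every untreated array, and its difference was -0.94 ± 0.25 (limma's adjusted p = 0.0477). Its subunit partner Nuf2 had -0.56. Cenpe, a kinetochore motor, read 3.92, 4.11, 4.22 and 4.11 in untreated and 3.98, 3.28, 2.97 and 3.31 in CTL tumours, a difference of -0.71 ± 0.19 (limma's adjusted p = 0.0490). Cenpa, the histone H3 variant of centromeres, had -0.73 ± 0.20 (limma's adjusted p = 0.0479). Cenpf, a large protein of the outer kinetochore, read 2.98, 3.00, 3.18 and 3.16 against 3.08, 2.17, 2.17 and 2.48, a difference of -0.60 ± 0.19 that did not pass (limma's adjusted p = 0.0628). On day 7 the median of this group was -0.68, when that of all 38 was -0.40.

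Of the 6 genes of spindle and microtubules, Hmmr fell with all days. Hmmr, the hyaluronan-mediated motility receptor that also binds spindle microtubules, read -1.43, -1.53, -1.45 and -0.94 in untreated and -1.46, -2.18, -2.19 and -1.74 in CTL tumours, a difference of -0.56 ± 0.13 (limma's adjusted p = 0.0420). It had the smallest p of the 38 with a difference close to their median. Kif11, the motor that pushes spindle poles apart, read -0.87, -0.96, -0.54 and -0.78 in untreated and -0.80, -2.0, -1.86 and -1.04 in CTL tumours, a difference of -0.64 ± 0.22 (limma's adjusted p = 0.0789). A dimmer Kif11 probe, well above background on 8 arrays, gave -0.15. Ckap2 had -0.76, Tpx2, an activator of Aurka, -0.63, the microtubule depolymerase Kif2c -0.62, and the microtubule-bundling Nusap1 -0.47.

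None of the 5 genes of the central spindle and cytokinesis passed with all days, and all 5 fell without day 1. Prc1, which bundles the microtubules of the central spindle, read 4.37, 4.40, 4.60 and 4.34 in untreated and 4.47, 3.47, 3.53 and 3.92 in CTL tumours, a difference of -0.58 ± 0.18 (limma's adjusted p = 0.0618). The motors Kif23 and Kif20a had -0.69 and -0.68, and Ect2, which activates RhoA at the cell equator, -0.51. Anln, the scaffold of the contractile ring, had -0.99 ± 0.34 (limma's adjusted p = 0.0752), and another Anln probe gave -0.32.

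Where a gene had several probes that passed the filter (19 genes, 23 further probes), all 23 further probes had the same sign as the probe used for CTL against untreated tumours. For anti-IFNg against IgG 22 of 23 did, the exception being the dim Kif11 probe at -0.39 against 0.60.

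**Figure D3:**
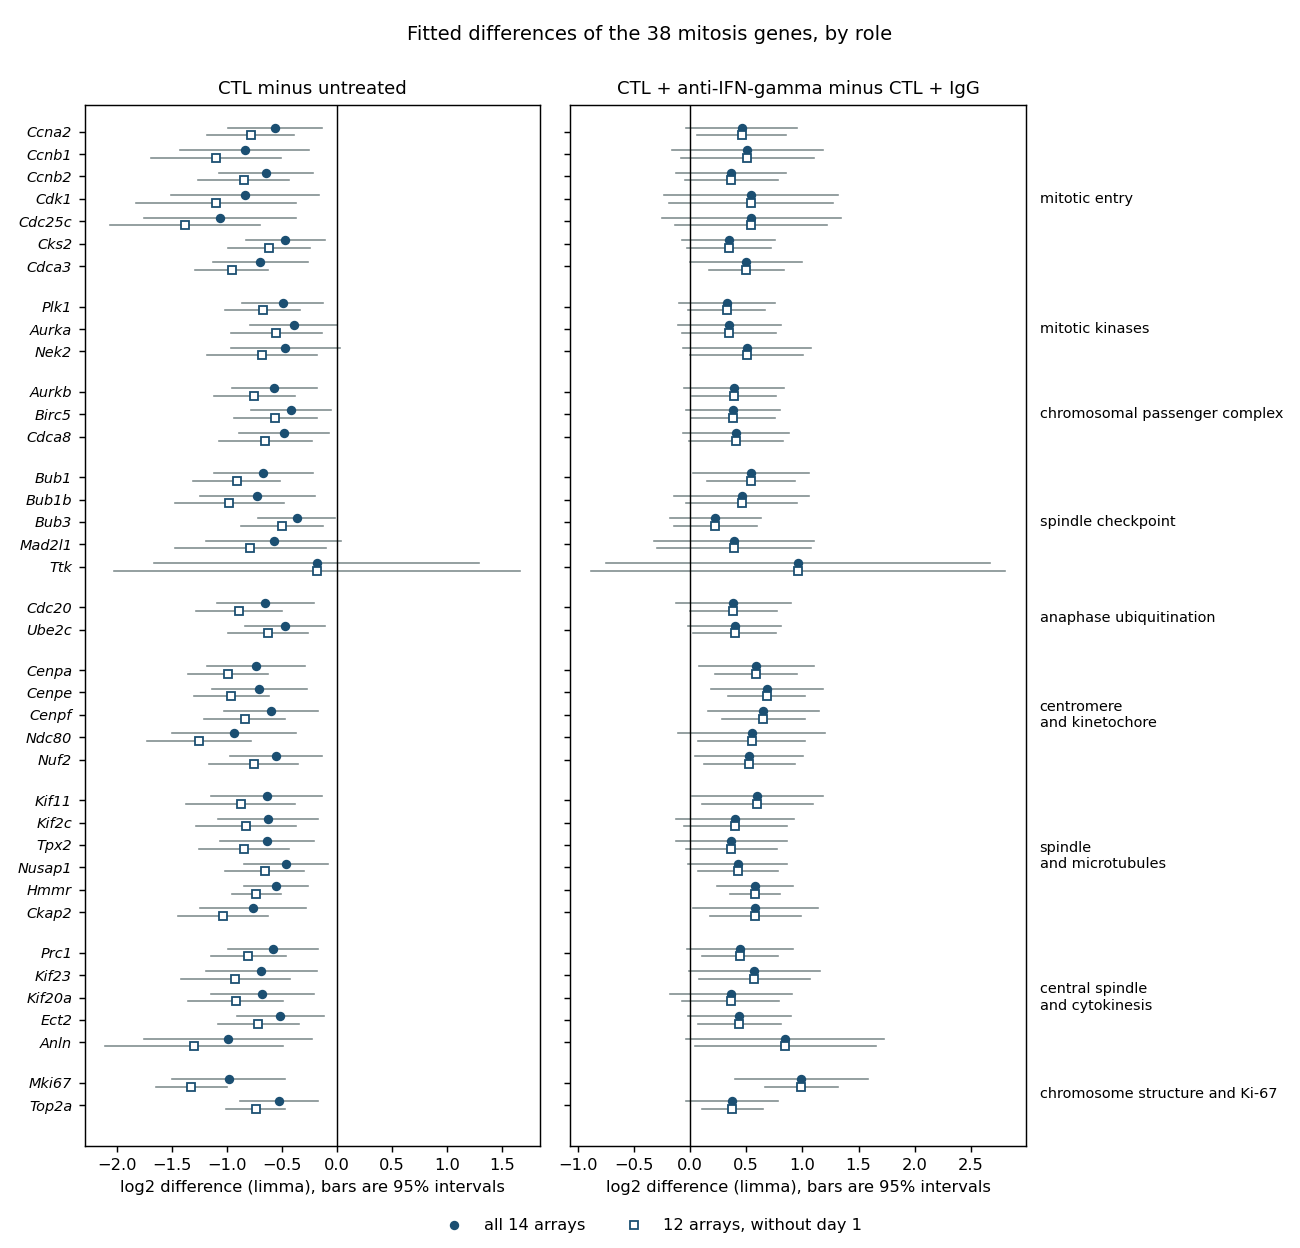
Fitted log2 differences of the 38 mitosis genes with 95% intervals (limma), grouped by role, for CTL minus untreated (left) and CTL with anti-IFNg minus CTL with IgG (right); filled circles use all 14 arrays and open squares the 12 arrays of days 3, 5 and 7. All 38 circles are below 0 on the left, from -1.06 for Cdc25c to -0.19 for Ttk, and above 0 on the right, from 0.23 for Bub3 to 0.99 for Mki67.

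The second comparison asked how neutralising interferon gamma changed CTL-treated tumours. Against the IgG arm of the same day, mitosis genes were higher in tumours with anti-IFNg: all 38 on days 3 and 5, by medians of 0.41 and 0.75, and 35 on day 7, by a median of 0.21, with Cks2, Aurka and Birc5 lower. No gene passed in limma's test on all 14 arrays, where 0.00587% of all genes passed upward. At an unadjusted p under 0.05, 10 of the 38 were higher, and so were 2491 of all 17032 genes tested. All 38 fitted differences were above 0, with a median of 0.46 against 0.06 over all genes. Without day 1, which neither antibody arm has, the differences stayed as they were and the spread pooled over all arms changed. In that fit 5 genes rose (Mki67, Hmmr, Cenpe, Cenpf and Cenpa), where 6.61% of all genes rose. For 12 genes the 3 anti-IFNg arrays lay above the 3 IgG arrays with no overlap and for none below, against 21.2% and 14.9% of all genes.

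Mki67 was higher by 0.99 ± 0.26 on the log2 scale (n = 3 days; limma's adjusted p = 0.0658), and without day 1 the standard error was 0.14 and limma's adjusted p 0.00502. Its levels of 4.67, 4.80 and 4.93 with anti-IFNg and 3.85, 3.43 and 4.15 with IgG did not overlap. Hmmr read -1.46, -1.45 and -1.17 with anti-IFNg and -2.01, -2.18 and -1.62 with IgG, a difference of 0.58 ± 0.15 (limma's adjusted p = 0.0637). Cenpe read 4.03, 4.09 and 4.30 against 3.61, 3.08 and 3.68, a difference of 0.68 ± 0.22 (limma's adjusted p = 0.0981). These were the 3 genes with the smallest p.

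No gene of mitotic entry, no mitotic kinase and no passenger gene passed, with or without day 1. Ccnb1 read 2.69, 2.67 and 2.88 with anti-IFNg and 2.15, 1.89 and 2.68 with IgG, so that 1 IgG array overlapped, with a difference of 0.51 ± 0.30 (limma's adjusted p = 0.295). Cdk1 read 2.64, 2.84 and 3.06 against 2.10, 2.24 and 2.57, a difference of 0.54 ± 0.34 (limma's adjusted p = 0.331). Plk1 read 4.81, 5.03 and 4.98 against 4.45, 4.43 and 4.96, a difference of 0.33 ± 0.19 (limma's adjusted p = 0.288). For Plk1, Aurkb and Birc5 the separation was that of days 3 and 5, since on day 7 the arms differed by 0.02 for Plk1, 0.16 for Aurkb and -0.02 for Birc5. Aurkb read 0.97, 1.46 and 1.44 with anti-IFNg and 0.59, 0.83 and 1.28 with IgG, a difference of 0.39 ± 0.20. Birc5 read 5.93, 6.05 and 6.07 against 5.44, 5.37 and 6.09, a difference of 0.38 ± 0.18.

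In the checkpoint group, Bub3 and Mad2l1 had the largest p-values of the 38. Bub3 read 4.56, 4.87 and 4.98 with anti-IFNg and 4.50, 4.52 and 4.72 with IgG, a difference of 0.23 ± 0.18 (limma's adjusted p = 0.432). Mad2l1 read 1.21, 1.44 and 1.57 against 0.94, 0.76 and 1.34, a difference of 0.39 ± 0.31 (limma's adjusted p = 0.440). Bub1b read 1.77, 1.88 and 1.96 against 1.26, 1.11 and 1.86, a difference of 0.46 ± 0.27. Ttk read -2.99, -2.69 and -2.70 with anti-IFNg and -4.08, -3.81 and -3.37 with IgG, and its 3 arrays of each arm did not overlap.

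The 5 kinetochore genes had a median difference of 0.59, and Cenpa, Cenpe and Cenpf rose without day 1. Cenpf read 2.98, 3.21 and 3.16 with anti-IFNg and 2.61, 2.07 and 2.72 with IgG, a difference of 0.65 ± 0.22. Ndc80 read -0.48, -0.07 and -0.04 against -0.88, -0.87 and -0.48, which touch between the lowest array of the first arm and the highest of the second, with a difference of 0.55 ± 0.29. For the genes of anaphase ubiquitination the arms overlapped or nearly did on day 7: Cdc20 read 4.93, 5.13 and 5.09 against 4.54, 4.43 and 5.04, and Ube2c 3.84, 3.87 and 4.03 against 3.43, 3.17 and 3.95. Kif11 read -0.81, -0.80 and -0.60 against -1.59, -1.65 and -0.76, Prc1 4.27, 4.44 and 4.39 against 3.90, 3.71 and 4.17, and Top2a 1.64, 1.83 and 1.93 against 1.36, 1.22 and 1.70.

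Tumours with CTLs and anti-IFNg did not differ detectably from untreated tumours in these genes. None of the 38 passed, where 0.00587% of all genes were called lower and 0.153% higher. None was under 0.05 without adjustment, where 1174 of all 17032 genes tested were. The median difference was 0.02 with 17 genes below 0. Without day 7 the median was -0.11 with 33 below 0. The 95% intervals all included 0, and reached 0.40 (median) to either side of the estimate, which leaves room for differences of that size. For Mki67 the interval ran from -0.41 to 0.23. On day 7 the untreated array was below the anti-IFNg one for 34 genes, Cdk1 among them (2.27 against 3.06), and the median of the 38 same-day differences went from -0.08 and -0.13 on days 3 and 5 to 0.20 on day 7. No gene had its 3 anti-IFNg arrays all below or all above the 3 untreated arrays of the same days, against 6.17% and 5.26% of all genes.

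The IgG arm, which received CTLs and a control antibody, was lower than untreated tumours. Of the 38 genes 9 fell (Mki67, Hmmr, Cenpe, Cenpa, Cenpf, Top2a, Ckap2, Cdca3 and Prc1), and none rose, where 11.2% of all genes fell and 7.47% rose, and all 38 fitted differences were below 0, with a median of -0.45. Mki67 had -1.08 ± 0.14 (n = 3 days; limma's adjusted p = 0.00175), Hmmr -0.63 ± 0.10 (limma's adjusted p = 0.00339) and Cenpe -0.69 ± 0.15 (limma's adjusted p = 0.0152). The count was 23 without day 7, where 8.95% of all genes fell, and 1, Mki67, without day 3 or day 5, where 1.67% and 1.26% fell. With no term for the day it was 4, where 9.63% of all genes fell, a share close to that of the 38 (10.5%). By day the median was -0.51, -0.89 and 0.05 on days 3, 5 and 7, so that on day 7 most of the set was at the untreated level while Mki67 was at 4.15 against 4.98. The 3 IgG arrays lay below the 3 untreated ones for 13 genes, and for 21.3% of all genes. CTL, IgG and anti-IFNg tumours were all set against the same untreated arrays, so these differences are not independent of each other.

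IgG tumours were above CTL tumours without antibody in 37 of 38 genes, all but Ttk, by a median of 0.33 against 0.02 over all genes. None passed in limma's test, where 0.0% of all genes were called higher and 0.0117% lower. At an unadjusted p under 0.05, 14 of the 38 were higher, and so were 1707 of all 17032 genes tested. The largest difference was that of Cdc25c, 0.83 ± 0.30 (limma's adjusted p = 0.225), and the IgG arrays lay all above the CTL arrays for 4 genes and all below for none, against 12.9% and 8.74% of all genes. The arms differ in antibody, in the number of tumours pooled and in position on the slide, which cannot be told apart. On day 3 all 38 genes had the order CTL below IgG below anti-IFNg, on day 5 31 did and on day 7 34.

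Whether the CTL difference itself changed with time was tested with an interaction term. From day 1 to the later days the difference moved by a median of -0.86 over the 38 genes. None of them passed, where 0.182% of all genes were called lower. At an unadjusted p under 0.05, 19 of the 38 were lower, and so were 1479 of all 17032 genes tested. In simulated data this interaction test recovered a log2 change of 1 for 2% of genes. Mki67 had -1.36 ± 0.28 (limma's adjusted p = 0.0759). Over days 3, 5 and 7 the slope of the CTL arm, set against a day term shared by the other arms, had a median of 0.07 per day, no gene passed, and 0.0% of all genes were called in either direction. In simulated data the slope test recovered 3% of genes whose CTL level changed by 1 from day 3 to day 7, so it could miss such changes. With a slope of its own for every arm, chosen after the data were seen, the median was 0.14 and no gene passed. The slope depended on the signal used and on day 7. Where normexp-corrected mean signals replaced the processed signals, its median was 0.16. There 7 of the 38 genes passed upward and 1 downward, where 4.35% and 26.8% of all genes did. Without day 7 its median was -0.04 with 22 genes below 0. Within arms, all 38 genes were higher on day 7 than on day 3 in CTL tumours (median change 0.48), in IgG tumours (0.45) and in anti-IFNg tumours (0.25), while the untreated median changed by -0.02. These changes compare single arrays and were not tested.

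**Figure D4:**
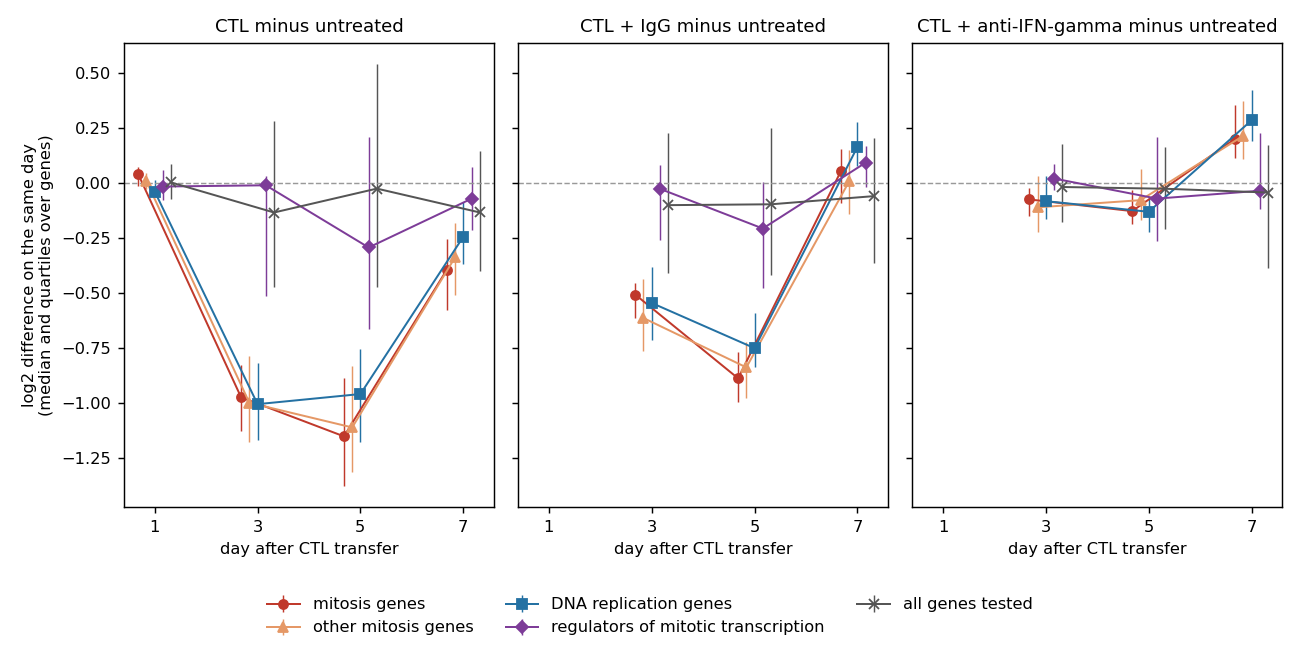
Same-day log2 difference from untreated tumours for the 38 mitosis genes, 60 other mitosis genes, 41 DNA replication genes, 17 regulators of mitotic transcription and all genes tested; points are medians over genes and bars the quartiles. The mitosis genes go from 0.04 on day 1 to -0.98, -1.15 and -0.40 in CTL tumours, and lie between -0.13 and 0.20 with anti-IFNg.

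Other genes of cell division were grouped by function, in lists written when earlier results of these data were known. Of 60 other mitosis genes 12 fell after CTL transfer and none rose, where 5.93% of all genes fell and 4.86% rose, with a median of -0.64, close to the -0.61 of the 38. The smallest p-values were those of Cenpi, a kinetochore protein (-0.74 ± 0.17, limma's adjusted p = 0.0413), Sgo1, the protector of centromeric cohesion (-0.80 ± 0.20, limma's adjusted p = 0.0423), and Tacc3, a spindle protein (-0.75 ± 0.19, limma's adjusted p = 0.0425). Without day 1, 48 of the 60 fell, where 21.4% of all genes did. With anti-IFNg against IgG their median was 0.50.

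DNA replication precedes mitosis, and 4 of 41 genes of that list fell, where 5.93% of all genes did, with a median of -0.55, among them Orc1 (-0.88 ± 0.21), Pole (-0.84 ± 0.22) and Rrm1 (-0.69 ± 0.19), with limma's adjusted p of 0.0423, 0.0452 and 0.0497. Without day 1, 31 fell, where 21.4% of all genes did, and with anti-IFNg against IgG the median was 0.40. Pcna, the sliding clamp, had -0.47 ± 0.18 (limma's adjusted p = 0.0989). On day 7 the replication genes stood at -0.25 in CTL tumours and at 0.16 with IgG, where the mitosis genes stood at -0.40 and 0.05.

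The list of 17 regulators of mitotic transcription, which holds activators, repressors and subunits of their complexes, had a median of -0.04, and none of its genes passed. Mybl2 (B-Myb), which works with MuvB on promoters such as those printed above, had -0.52 ± 0.17 (limma's adjusted p = 0.0700), and Foxm1, the transcription factor of late cell cycle genes, -0.42 ± 0.17 (limma's adjusted p = 0.103). Tfdp1, a partner of the E2F factors, had -0.45 ± 0.17. Without day 1, 4 of 17 fell, a share close to the 21.4% of all genes, with Mybl2 at -0.69 ± 0.17 (limma's adjusted p = 0.0201) and Foxm1 at -0.59 ± 0.16 (limma's adjusted p = 0.0300). Cdkn1a, the p21 inhibitor of cyclin-dependent kinases, had -0.30 ± 0.16 after CTL transfer (limma's adjusted p = 0.213) and 0.08 ± 0.19 with anti-IFNg against IgG.

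Markers of other cells moved with the same arms, in a comparison of CTL with untreated tumours where 5.93% of all genes fell and 4.86% rose. The summed level of 10 measured T cell markers was 2.9 to 3.6 in untreated tumours of days 3 to 7, 7.9 to 14.8 with CTLs, 6.0 to 12.6 with IgG and 3.6 to 5.6 with anti-IFNg, and 6 of 10 rose after CTL transfer. Cd3e, a subunit of the T cell receptor complex, was well above background on all 14 arrays and Cd8a on 9, and 3 of the 10 were at background on all untreated arrays. That of 11 macrophage markers was 21.9 to 24.2, 81.9 to 108.6, 61.9 to 115.0 and 36.8 to 65.5, and 6 of 11 rose. Of 9 endothelial markers 4 fell, and their sum was 7.6 to 10.9 in untreated tumours, 5.0 to 5.9 with CTLs, 4.0 to 5.0 with IgG and 7.8 to 8.4 with anti-IFNg. On day 1, when the mitosis genes had a median difference of 0.04, the sums of CTL and untreated tumours were 3.4 and 3.3 for T cells and 32.2 and 31.4 for macrophages. All 5 erythroid markers were lower after CTL transfer, with a median of -2.09, the lowest median of the marker lists, and 1 of the 5 passed. Their sum was 105.9 to 1098 in untreated tumours of days 3 to 7, 54.7 to 106.4 with CTLs, 50.3 to 133.3 with IgG and 66.6 to 514.0 with anti-IFNg, and on day 1 it was already 58.3 with CTLs against 167.0. None of 7 fibroblast markers passed and 2 of 5 B cell markers rose. Thy1 was counted in both the T cell and the fibroblast list. The part of these cells in the difference of the mitosis genes was not tested.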

How the data were processed

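Total RNA of pooled B16F10 tumours was extracted with TRIzol, per the labels' protocols, labelled with Cy3 and hybridised to 14 one-colour arrays. Spots were read with Feature Extraction 9.5, as the submitters' processing notes say. The deposited scanner files give each spot's intensity, linear and already background-subtracted, per the file headers. A second deposited table holds the authors' log2 values and differs from log2 of the processed signal by a constant per array (r = 1), places each column's 75th percentile near 0 and has column medians from -3.54 to -3.14.

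Here the 75th percentile of 43379 non-control spots was subtracted from log2 of the processed signal. Outlier spots were dropped, which left 29 of 41174 probes without a value on some array, and spots of one probe were averaged. For 24375 probes an accession was matched in a RefSeq gene table, which gave the name where the gene was outside the lists used here. Listed genes, the 38 among them, were named from the gene names of the arrays. Probes well above background on fewer than 3 arrays were dropped, and the brightest probe of a gene was used. The 38 genes had 66 probes, of which 5 were too dim.

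Tests used limma 3.58.1 (R 4.3.3, arm and day as terms, Benjamini-Hochberg over all 17032 genes, two-sided threshold 0.05). The comparisons of CTL with untreated tumours and of anti-IFNg with IgG, and the interaction term, used all 14 arrays. The slope and all other comparisons of arms used the 12 arrays of days 3, 5 and 7. Arrays are paired by day, which the labels give, and the day is the slide. Of 18 same-day pairs of arrays, 12 had deviations from their arm means correlated over 0.1 (median r 0.129, from -0.0442 to 0.510). The alternatives were normexp correction of the mean signal in place of the processed signal (also scaled to the 75th percentile), quantile normalization, other filters, averaging probes, the authors' table, no day term, only the arms compared and leaving out each day. The scripts were tested on simulated data: a log2 change of 1 was recovered for 70% of genes for CTL against untreated and 64% for anti-IFNg against IgG, and for 2% for the interaction term.

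The genes named with all array values are 15 chosen for their role and the 3 smallest and 2 largest p-values of both main comparisons. In the other lists of cell division genes, those with the 3 smallest p-values, Foxm1, Mybl2, Cdkn1a and Pcna are named with fitted differences only. The members and lists were chosen with earlier results of these data known. Promoter sequences are from RefSeq (GRCm38.p6) and probe positions from the file headers' build, mm8. No exon annotation was used here.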

Additional observations from a re-analysis of the deposited data

Results flagged for a closer look

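Among the 38 mitosis genes, the 4 arrays of the untreated arm and the 4 of the CTL arm were screened for a single array far from the others, 76 groups in all, of which chance alone picks out about 5%. In 2 groups one array stood apart. Ccnb2, a B-type cyclin, had a log2 level of 4.80 on the untreated array of day 7, with the nearest other untreated array at 5.11. Ect2, which activates RhoA in cytokinesis, had 2.93 on the untreated array of day 5, with the nearest at 2.71. Both arrays enter the same-day differences of those days, and no cause was tested.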

How the results depend on the processing

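The medians of the 38 genes kept their sign in the comparisons of CTL or IgG with untreated tumours and of anti-IFNg with IgG, under all alternatives run, while the counts of genes that passed in limma's test moved. For CTL against untreated tumours, 6 genes passed (5.93% of all genes lower). The count was 1 with normexp correction of the mean signal (0.622% of all genes lower) and 3 with probes averaged (4.55%). It was 21 with genes well above background on every array (13.8%), 2 with quantile normalization and 2 with the authors' table. With no filter on dim probes or only the arms compared it was 0, and no gene at all was called lower. Leaving out 1 day gave 0 to 36 (0% to 21.4% of all genes lower). With quantile normalization and the authors' table those 2 are 5.26% of the 38, where 4.54% and 4.59% of all genes fell. For anti-IFNg against IgG, 0 passed. With genes well above background on every array 2 did, Hmmr and Mki67 (5.41% of those measured, where 4.30% of all genes rose). With only the arms compared it was 2 other genes, Anln and Ttk (1.88% of all genes). Leaving out 1 day gave 0 to 5, with neither Anln nor Ttk among the 5. For IgG against untreated tumours, 9 passed, 1 with normexp, 3 with no filter, 2 with only the arms compared (1.90%, 3.68% and 2.69% of all genes lower) and 1 to 23 leaving out 1 day. Without the replicate block for the day, 0 passed for CTL against untreated tumours, where no gene at all was called lower. For IgG against untreated tumours 4 passed, where 9.63% of all genes fell, and no other count moved by over 1.5 times. For IgG against CTL the median of 0.33 was 0.51 with normexp, and for the slope 8 genes passed with normexp against 0, 7 higher and 1 lower, where 4.35% of all genes were called higher and 26.8% lower. The medians of the slope and of anti-IFNg against untreated tumours turned to -0.04 and -0.11 without day 7. Over all alternatives, 26 genes changed sign under at least 1 for the slope, 30 for anti-IFNg against untreated tumours and 4 for IgG against CTL, and none for anti-IFNg against IgG. In the other 3 comparisons signs turned for 3 genes. Ttk had 0.51 with normexp and -1.09 to 0.33 leaving out 1 day for CTL against untreated tumours, and for the interaction term -0.031 with quantile normalization and -1.34 to 0.78 leaving out 1 day. For IgG against untreated tumours, leaving out 1 day gave -0.51 to 0.0062 for Aurka and -0.72 to 0.038 for Mad2l1. The cause was not tested. Filters change which genes are tested, and leaving out a day removes arrays. The number of arrays limits the precision.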
